A study of Ovis aries with 4 samples.

Results

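The genes described here code for subunits of ATP synthase and of complex I, the machine that makes ATP and the first pump of the mitochondrial respiratory chain. They are the 7 of 20150 genes in the deposited count files that carry the symbols ATP5MC1, ATP5PO, NDUFA12, ATP6, ATP8, ND1 and ND4, and all 7 were found by their symbols. ATP5MC1 (ENSOARG00000006653), ATP5PO (ENSOARG00000012773) and NDUFA12 (ENSOARG00000015952) lie in the nuclear genome. ATP6 (ENSOARG00000000022), ATP8 (ENSOARG00000000021), ND1 (ENSOARG00000000006) and ND4 (ENSOARG00000000028) lie in the mitochondrial genome. The samples were mammary gland tissue of 4 lactating sheep (Ovis aries), profiled by single-cell RNA sequencing in droplets, each ewe giving 1 library. The 2 libraries labelled LL came from late lactation, and the 2 labelled LH were taken as peak lactation by elimination, since the series abbreviates peak lactation otherwise. Treatment, breed and age are not given in the sources used here, and n = 2 ewes per stage throughout. The question was how the nuclear-coded and the mitochondria-coded subunits were distributed over the cell types of the gland and between the stages.

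Complex I passes electrons from NADH to ubiquinone and pumps protons out of the mitochondrial matrix, and ATP synthase lets the protons flow back through a rotating ring and uses their energy to make ATP. Both are built from subunits of 2 genomes: most are coded in the nucleus, translated in the cytosol and imported, and a few hydrophobic ones are coded by the mitochondrial DNA and made inside the organelle. ATP5MC1 codes for the c subunit of the rotating ring, ATP5PO for the peripheral stalk subunit that holds the catalytic head in place, and NDUFA12 for an accessory subunit of complex I. ATP6 forms the proton path beside the ring and ATP8 is a small membrane subunit next to it, while ND1 and ND4 are core membrane subunits of complex I. Milk secretion in lactating epithelium consumes much ATP for protein, lactose and fat synthesis.

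The libraries held 12733 and 11178 barcodes (LL replicates 1 and 2) and 5955 and 9380 barcodes (LH replicates 1 and 2), with 60303230 and 65339993 UMIs (unique molecular identifiers, which count captured transcripts) in LL and 28015149 and 56178927 in LH. Of 39246 barcodes, 38886 had at most 20% mitochondria-coded UMIs and were kept. The median mitochondria-coded share of a cell was 3.97% and 4.17% in LL, against 5.33% and 2.17% in LH, so LH replicates 1 and 2 stood at opposite ends. Pairs of libraries shared 15 to 39 barcode sequences, at most 0.384% of the smaller library. Cells were sorted by per-cell sums of marker genes into luminal epithelium-like cells (898 and 2639 in LL, 223 and 2269 in LH), fibroblast-like cells (2017 and 1226 in LL, 215 and 28 in LH), T cell-like cells (1086 and 838 in LL, 2403 and 532 in LH) and macrophage-like cells (267 and 135 in LL, 224 and 426 in LH). A group positive for EDNRA and IGFBP7 (2578 and 2102 in LL, 436 and 3124 in LH) and a group positive for RELN and F8 (364 and 188 in LL, 45 and 40 in LH) were named by markers and given no cell type. The markers of the EDNRA/IGFBP7-positive group also included CNN1, TPM1, AVPR1A and AGTR1, and those of the other group were RELN and F8 alone. The luminal cells carried PAEP, the gene of a major whey protein, at 3851 and 3104 UMIs per 1000000 UMIs (CPM) in LL and 829 and 803 CPM in LH. Other milk protein genes that define secretory epithelium were at or near 0 in LH: CSN2 and CSN1S1 were at 0 and at most 0.174 CPM there and LALBA was at 0 in both, against 161, 175 and 15.8 CPM in LL replicate 1 and at most 9.68 CPM in LL replicate 2. CSN3, another milk protein gene, was at most 5.88 CPM in LH, at 5.93 CPM in LL replicate 2 and at 1237 CPM in LL replicate 1. PAEP and these milk protein genes were among the markers whose sums sorted the luminal cells. Milk protein genes are known to be most active around peak lactation, whereas PAEP was lower in both LH libraries. Its level depends in part on the sorting rule, so it cannot decide which stage LH was, and this was not tested. The high values of the other milk protein genes came from LL replicate 1 alone. LL and LH are used below only as the names on the libraries. A level in CPM is the share of a cell group's summed UMIs in 1 library, so it depends on what the other genes of those cells did.

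By mean over the 4 libraries, the nuclear-coded subunits were highest in the EDNRA/IGFBP7-positive and the luminal cells. Summed over ATP5MC1, ATP5PO and NDUFA12, the EDNRA/IGFBP7-positive cells held 684 and 738 CPM in LL and 582 and 628 CPM in LH, and the luminal cells held 600.0 and 690.0 CPM in LL and 447 and 492 CPM in LH. T cell-like cells were at the other end with 338 and 340.4 CPM in LL and 258 and 353 CPM in LH, and the RELN/F8-positive cells had 396 and 430.2 CPM in LL and 305 and 324 CPM in LH. In the order of means over 4 libraries (EDNRA/IGFBP7-positive, luminal, macrophage-like, fibroblast-like, RELN/F8-positive, T cell-like), only the step between luminal cells (557 ± 109 CPM) and macrophage-like cells (430.4 ± 67.2 CPM; SD, n = 4 ewes each) was larger than the larger SD of the pair. That order held in 3 of 4 libraries, and in LH replicate 2 the macrophage-like cells lay above the luminal cells. Within a library, the highest cell group held 1.94 to 2.26 times the nuclear-coded sum of the lowest, and within a cell group the highest library held 1.27 to 1.54 times that of the lowest.

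ATP5MC1, the ring subunit, was at 202 and 217 CPM in LL and 142 and 172 CPM in LH among the EDNRA/IGFBP7-positive cells. In luminal cells it was at 183 and 247 CPM in LL and 118 and 148 CPM in LH. RELN/F8-positive cells had 93.2 and 70.5 CPM in LL and 70.0 and 73.1 CPM in LH, and T cell-like cells had 78.9 and 87.2 CPM in LL and 52.5 and 84.3 CPM in LH. Every library of the first pair of groups lay above every library of the second pair. Against the mean of the other 5 groups, with the library as a block, ATP5MC1 was higher by 0.82 ± 0.12 on the log2 scale in luminal cells (adjusted p = 5.8e-06) and by 0.69 ± 0.12 in EDNRA/IGFBP7-positive cells (adjusted p = 8.7e-05; edgeR's quasi-likelihood test, log2 difference ± SE, Benjamini-Hochberg over 11963 genes). It was lower in RELN/F8-positive cells (log2 difference -0.95 ± 0.16, adjusted p = 0.00013) and in T cell-like cells (-0.53 ± 0.14, adjusted p = 0.0024) in the same edgeR fit. All 4 ewes showed each of these 4 differences.

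ATP5PO, the stalk subunit, was highest in the EDNRA/IGFBP7-positive cells, with 334 and 347 CPM in LL and 300.1 and 309 CPM in LH. By mean level luminal cells followed, with 255 and 255 CPM in LL and 204 and 211 CPM in LH. These 2 groups did not overlap, and the step between them (322 ± 21.8 and 231 ± 27.4 CPM; SD, n = 4 ewes each) exceeded both SDs. ATP5PO was higher in EDNRA/IGFBP7-positive cells than in the mean of the others by 0.64 ± 0.12 log2 (edgeR adjusted p = 0.00011). In luminal cells the difference was 0.29 ± 0.12 log2 with an edgeR adjusted p of 0.038, and it passed in 8 of 14 alternative settings. RELN/F8-positive cells had 213 and 244 CPM in LL and 136 and 157 CPM in LH, lower than the others by an edgeR log2 difference of -0.46 ± 0.14 (adjusted p = 0.016), which passed in 9 of 13 settings. That group rests on few molecules: LH replicate 2 contributed 15 UMIs of ATP5PO, 7 of ATP5MC1 and 9 of NDUFA12.

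NDUFA12, the complex I accessory subunit, was at 162 and 189 CPM in LL and 125 and 134 CPM in LH among luminal cells, and at 148 and 174 CPM in LL and 139.9 and 148 CPM in LH among EDNRA/IGFBP7-positive cells. T cell-like cells were the lowest, with 72.0 and 77.8 CPM in LL and 59.5 and 69.8 CPM in LH. No library of T cell-like cells reached the lowest library of either other group. By edgeR, NDUFA12 was higher in luminal cells by 0.78 ± 0.11 log2 (adjusted p = 2.1e-06) and in EDNRA/IGFBP7-positive cells by 0.55 ± 0.11 log2 (adjusted p = 0.00028), and lower in T cell-like cells (log2 difference -0.47 ± 0.12, adjusted p = 0.0019). Macrophage-like cells had 75.5 and 92.2 CPM in LL and 81.3 and 120.0 CPM in LH, and their log2 difference from the others was -0.12 ± 0.12 (edgeR adjusted p = 0.84).

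**Figure D1:**
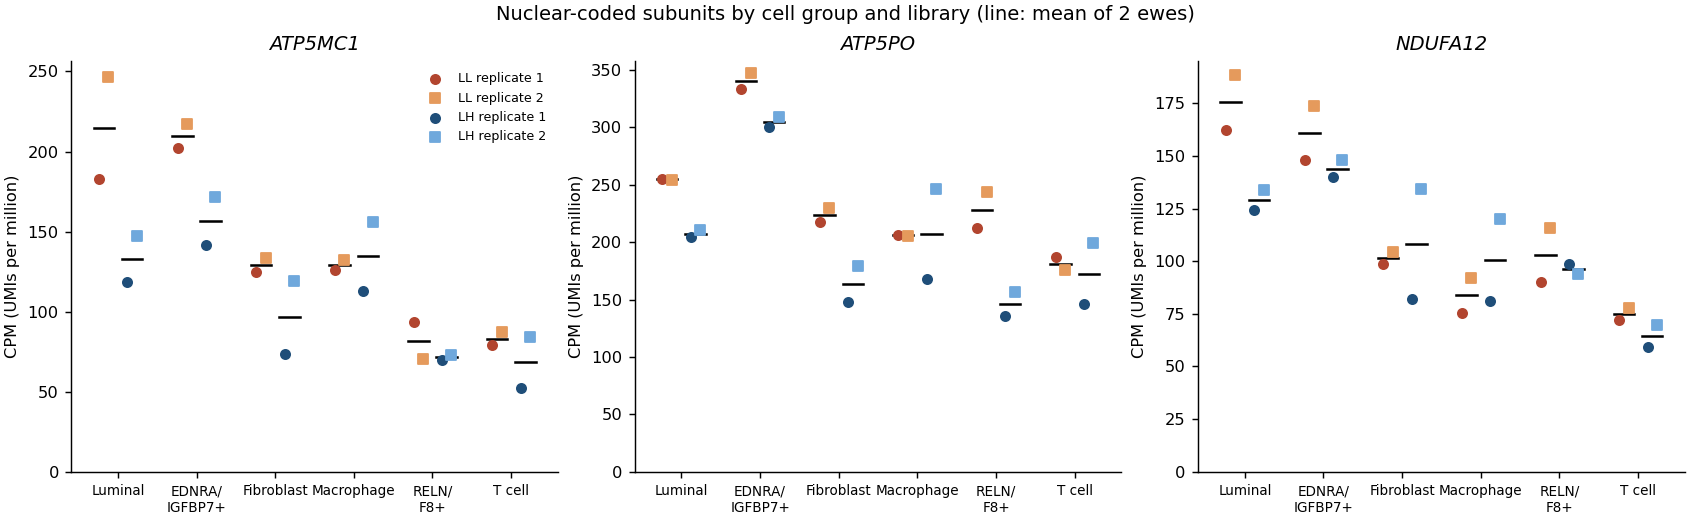
Level of each nuclear-coded subunit (CPM, vertical axis) in 6 cell groups (horizontal axis), 1 panel per gene; points are single ewes (LL and LH, replicates 1 and 2) and lines the mean of 2 ewes of a stage. EDNRA/IGFBP7-positive and luminal cells stand above RELN/F8-positive and T cell-like cells for ATP5MC1, while macrophage-like and fibroblast-like cells overlap with luminal cells, and for ATP5PO the EDNRA/IGFBP7-positive cells (300.1 to 347 CPM) stand above all other groups.

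Counted over members, 3 of 7 were called higher in the EDNRA/IGFBP7-positive cells, all nuclear-coded, where 25% of 11963 genes were called higher. In luminal cells 4 of 7 were called higher, the 3 nuclear-coded members and ND1, against 30.9% of genes. In T cell-like cells 2 of 7 were called lower (28.5% of genes) and 1 higher (29.8% of genes), in RELN/F8-positive cells 2 lower (13.7%), in macrophage-like cells 1 higher (25.5%), and in fibroblast-like cells 6 lower (23.5%). Calls were thus common among all genes. Without TMM scaling the median log2 difference of all genes moved to -0.18 in luminal, -0.28 in T cell-like, -0.21 in macrophage-like and 0.11 in RELN/F8-positive cells, and the higher share of the called genes became 41.0% in luminal (52.2% with scaling), 69.1% in fibroblast-like (49.8%), 34.9% in T cell-like (51.1%) and 73.5% in RELN/F8-positive cells (51.5%). Relative to those medians ATP5MC1 and NDUFA12 differed by 0.82 and 0.79 in luminal cells and by -0.50 and -0.46 in T cell-like cells. The macrophage-like call was ATP5MC1 (0.34 ± 0.13 log2, edgeR adjusted p = 0.036), which passed in 6 of 14 settings and was lost, among others, without TMM scaling, in clusters in place of marker sums, with at most 5% mitochondria-coded UMIs and without LH replicate 1, LH replicate 2 or LL replicate 1, with log2 differences between 0.19 and 0.48 over the settings. The fibroblast-like calls depended on several choices. Of 13 settings, ATP5MC1 passed in 6, ATP6 in 7, ND1 and NDUFA12 in 8 and ATP5PO and ATP8 in 10. ATP5MC1 and ATP6 were lost without any 1 of the 4 libraries, and all 6 calls were lost without LL replicate 1. Over the settings the log2 difference of ATP5MC1 ran from -0.61 to -0.11 and that of ATP6 from -0.40 to -0.012, with the same sign throughout. ATP5MC1, ATP5PO, NDUFA12, ATP6, ATP8 and ND1 were lower there by edgeR log2 differences of -0.38, -0.44, -0.39, -0.29, -0.38 and -0.38, but none of the 6 passed without TMM scaling of the totals, where the median over all genes in that group was 0.20 log2, against -0.06 with scaling. Relative to that median the unscaled differences were -0.31, -0.38, -0.33, -0.21, -0.32 and -0.31. The group also had 28 cells in LH replicate 2. By contrast, the differences of ATP5MC1 and NDUFA12 in luminal and T cell-like cells, of ATP5MC1 in RELN/F8-positive cells and of all 3 nuclear-coded members in EDNRA/IGFBP7-positive cells passed in every setting tried, 13 or 14 for each.

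The mitochondria-coded subunits varied in another way: they differed little between cell groups of a library and much between libraries. ATP6 in luminal cells was at 7686 and 8286 CPM in LL and at 7856 and 3209 CPM in LH. In EDNRA/IGFBP7-positive cells it was at 8373 and 8260 CPM in LL and 10422 and 3868 CPM in LH, and in T cell-like cells at 8238 and 6917 CPM in LL and 9328 and 2881 CPM in LH. LH replicate 2 was the lowest library for ATP6, ATP8, ND1 and ND4 alike in 6 of 6 cell groups. ATP8 in luminal cells was at 227 and 217 CPM in LL and 393 and 109 CPM in LH, so the LL libraries lay between the LH libraries. ND1 in luminal cells was at 2362 and 3042 CPM in LL and 3195 and 1020 CPM in LH, with the LL libraries again in between. ND4 in luminal cells was at 5552 and 5475 CPM in LL and 4560 and 2403 CPM in LH, where both LL ewes exceeded both LH ewes. Within a cell group the highest library held 2.19 to 2.79 times the summed mitochondria-coded members of the lowest, and within a library the highest cell group held 1.34 to 1.45 times those of the lowest. Averaged over the other factor, the SD of log2 CPM between libraries was 0.63 for ATP6, 0.77 for ATP8, 0.72 for ND1 and 0.45 for ND4, against 0.16, 0.15, 0.20 and 0.25 between cell groups. For ATP5MC1, ATP5PO and NDUFA12 the same SDs between libraries were 0.26, 0.19 and 0.15, below those between cell groups of 0.55, 0.32 and 0.44.

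**Figure D2:**
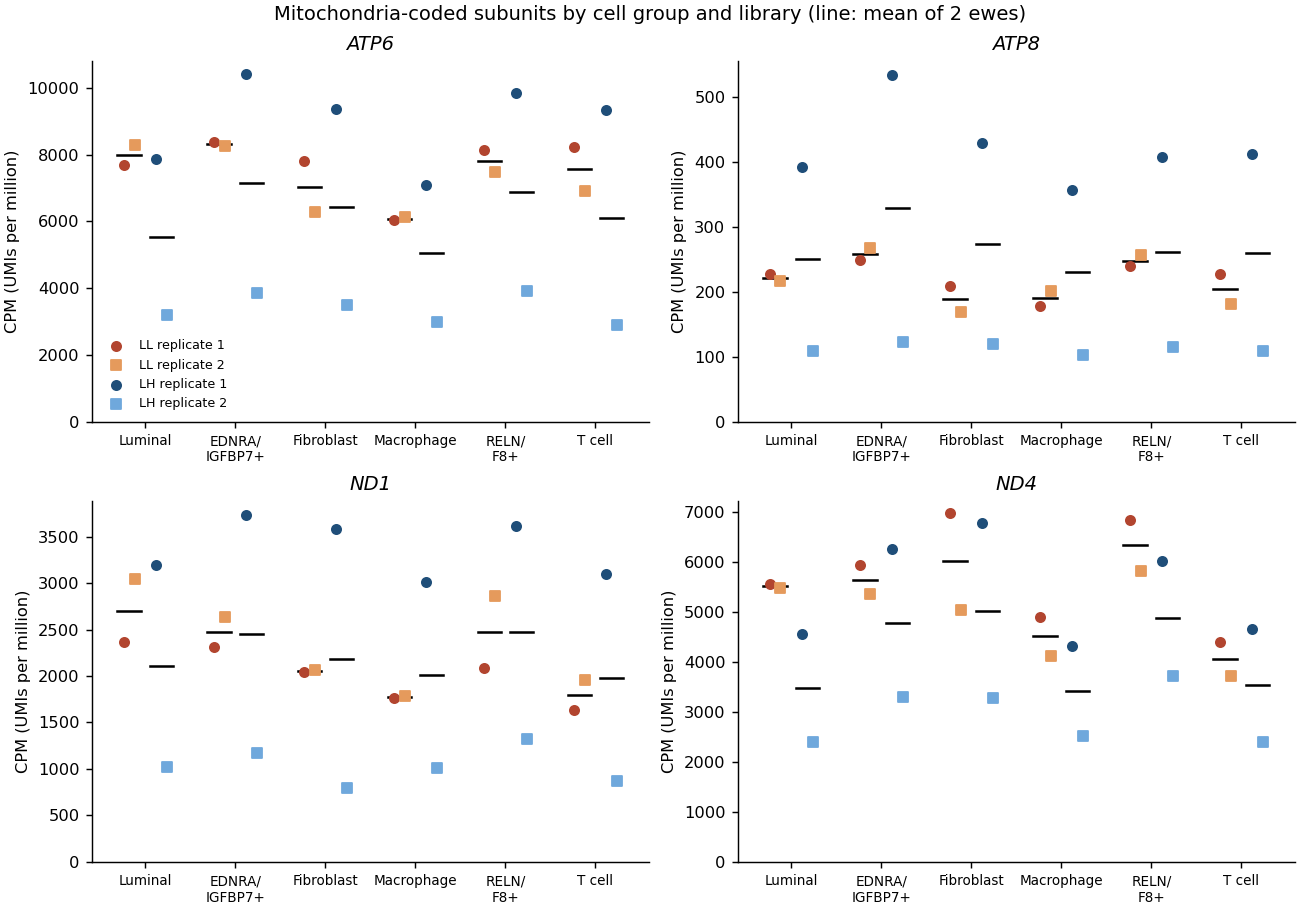
Level of each mitochondria-coded subunit (CPM, vertical axis) in 6 cell groups (horizontal axis), 1 panel per gene; points are single ewes of LL and LH and lines the mean of 2 ewes of a stage. LH replicate 2 lies lowest for all 4 genes in all 6 groups, and the cell groups differ little within a library.

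In no pair of neighbours in the order of cell groups by mean level did the gap for ATP6, ATP8, ND1 or ND4 exceed the larger SD over ewes. Within libraries, ND1 was higher in luminal cells than in the mean of the others by 0.36 ± 0.12 log2 (edgeR adjusted p = 0.018, in 10 of 14 alternative settings). ATP6 was higher in T cell-like cells by 0.25 ± 0.11 log2 (edgeR adjusted p = 0.049, in 7 of 14 settings), and without TMM scaling this difference turned to -0.03. ATP8 in EDNRA/IGFBP7-positive cells differed by 0.24 ± 0.11 log2 and did not pass (edgeR adjusted p = 0.071). ND4 did not pass in any of the 6 cell groups. ATP8 and ATP6 overlap in the mitochondrial genome, as ND4L and ND4 do, and how reads in the shared stretch were assigned is not given in the sources used here, so the split within these pairs is uncertain. The same holds for reads that could come from nuclear copies of mitochondrial sequence.

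The ratio of mitochondria-coded to nuclear-coded members does not depend on the library total and showed both patterns at once. In luminal cells the log2 ratio of their summed UMIs was 4.72 and 4.62 in LL and 5.16 and 3.78 in LH. In EDNRA/IGFBP7-positive cells it was 4.62 and 4.48 in LL and 5.17 and 3.75 in LH, and in T cell-like cells 5.42 and 5.23 in LL and 6.08 and 4.15 in LH. In all 6 groups the LL libraries lay between the LH libraries, the highest ratio was that of LH replicate 1 and the lowest that of LH replicate 2. The LL minus LH difference of the log2 ratio was 0.20 in luminal, -0.04 in fibroblast-like, 0.09 in EDNRA/IGFBP7-positive, 0.21 in T cell-like, 0.40 in macrophage-like and -0.07 in RELN/F8-positive cells, each with p = 1 in an exact two-sided permutation test, for which 0.333 is the smallest p this design allows. The SD of the log2 ratio was 0.07 over the 2 LL ewes and 0.98 over the 2 LH ewes in luminal cells. Between cell groups of the same ewe, the luminal log2 ratio was lower than that of the RELN/F8-positive cells by a mean difference of -0.81, than that of the T cell-like cells by -0.65 and than that of the fibroblast-like cells by -0.51. Each of these 3 had the same sign in 4 of 4 ewes, with p = 0.125 in an exact two-sided sign-flip permutation test, the smallest it can give, and 0.458 after Benjamini-Hochberg adjustment over 11 comparisons. Set against EDNRA/IGFBP7-positive cells the luminal difference was 0.06 (exact p = 0.25, adjusted 0.55), and against macrophage-like cells it was -0.13 (exact p = 0.25, adjusted 0.55).

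**Figure D3:**
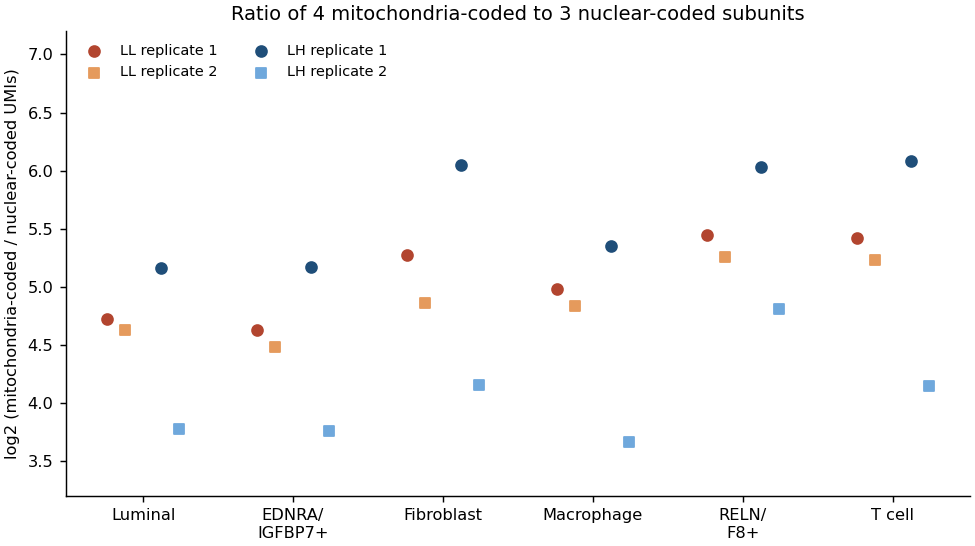
Log2 ratio of summed mitochondria-coded (ATP6, ATP8, ND1, ND4) to summed nuclear-coded (ATP5MC1, ATP5PO, NDUFA12) UMIs (vertical axis) in 6 cell groups (horizontal axis), 1 point per ewe of LL and LH. In every group the LL ewes lie between LH replicate 1 above and LH replicate 2 below.

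Between the stages, no member was called in any cell group by edgeR at an adjusted p under 0.05, out of 42 values, and DESeq2 called none either. At an unadjusted p under 0.05 edgeR had 3 of the 42 values, ATP5MC1 in luminal cells (10% of genes there) and in EDNRA/IGFBP7-positive cells (7.9% of genes) and ATP5PO in RELN/F8-positive cells (9.14% of genes), and DESeq2 had 2. Calls were rare among all genes too: edgeR called 0.00746% of 13403 genes in luminal cells, 0.0254% of 11828 in EDNRA/IGFBP7-positive cells, 0.0101% of 9899 in fibroblast-like cells, 0.0104% of 9608 in T cell-like cells, 0.0119% of 8377 in macrophage-like cells and 0% of 5823 in RELN/F8-positive cells. DESeq2 called more genes, 313 in luminal and 15 in RELN/F8-positive cells, and in RELN/F8-positive cells edgeR had 532 genes at an unadjusted p under 0.05. The luminal differences of the nuclear-coded members, all with no overlap between the stages, were 0.71 ± 0.25 log2 for ATP5MC1 (adjusted p = 0.45), 0.30 ± 0.16 for ATP5PO (adjusted p = 0.59) and 0.46 ± 0.19 for NDUFA12 (adjusted p = 0.51; edgeR, LL over LH, ± SE, n = 2 ewes each). For EDNRA/IGFBP7-positive cells edgeR gave 0.46 ± 0.16 for ATP5MC1 (adjusted p = 0.60), 0.20 ± 0.15 for ATP5PO and 0.20 ± 0.16 for NDUFA12. Macrophage-like cells had the opposite sign for all 3, at -0.15 ± 0.29, -0.09 ± 0.31 and -0.37 ± 0.29; none passed, and in cell groups formed from clusters in place of marker sums the same values were 0.56, 0.14 and 0.36. The LH libraries of macrophage-like cells had more cells under 1000 UMIs (26.8% and 24.6%) than the LL libraries (8.24% and 13.3%), whose part in these values was not tested.

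Counted on TMM-scaled CPM, both LL values exceeded both LH values for 11 of the 18 pairs of a nuclear-coded member and a cell group and below for 1, and above for 1 of the 24 pairs of a mitochondria-coded member and a cell group and below for none. By cell group this was 4 of 7 members above in luminal cells, where 20.4% of all genes lay above, 3 in EDNRA/IGFBP7-positive cells (20.1% of genes), 2 in fibroblast-like cells (23.3%), 2 in RELN/F8-positive cells (21.8%) and 1 in T cell-like cells (19.3%). Without TMM, ATP5MC1 in RELN/F8-positive cells overlapped, at 70.5 CPM in LL replicate 2 (39 UMIs) and 73.1 CPM in LH replicate 2 (7 UMIs). The 2 fibroblast-like members, ATP5MC1 and ATP5PO, had 8 and 12 UMIs in LH replicate 2. In macrophage-like cells none lay above (19.7% of genes did) and NDUFA12 lay below, as 19.1% of genes did. The cell groups share the same 4 ewes, so the pairs are not independent of each other. Luminal cells also came from different clusters at the 2 stages: 1 cluster held 560 and 1870 cells in LL and 14 and 40 in LH, and another held 29 and 234 cells in LL and 161 and 1483 in LH. The part of this shift in the luminal values was not tested.

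For the mitochondria-coded members the stage difference rested on which LH ewe was taken. In luminal cells edgeR's LL over LH log2 difference was 0.55 ± 0.45 for ATP6, -0.15 ± 0.56 for ATP8, 0.38 ± 0.54 for ND1 and 0.68 ± 0.35 for ND4. Leaving out 1 library at a time moved ATP8 between -0.80 and 1.02 and ND1 between -0.21 and 1.41. In EDNRA/IGFBP7-positive cells ATP6 was higher in LL by 1.17 ± 0.11 without LH replicate 1 (edgeR adjusted p = 0.026) and ATP8 was lower in LL without LH replicate 2, with a log2 difference of -1.03 ± 0.14 (edgeR adjusted p = 0.0099). In RELN/F8-positive cells ATP6 and ND4 were called higher in LL without LH replicate 1 (edgeR adjusted p = 0.015 and 0.041), and in T cell-like cells ATP8 and ND1 were called lower in LL without LH replicate 2 (edgeR adjusted p = 0.048 and 0.043). These fits assume that the lone LH ewe varies as the LL ewes do. Whether the luminal stage change differed from the mean change of the other groups was tested in 1 fit over all groups. No member was called (edgeR adjusted p between 0.73 and 1), where 0.0402% of 12449 genes were. The differences of log2 changes were 0.38 ± 0.23 for ATP5MC1, -0.02 ± 0.19 for ATP5PO and 0.36 ± 0.19 for NDUFA12, with a median of -0.09 over all genes.

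**Figure D4:**
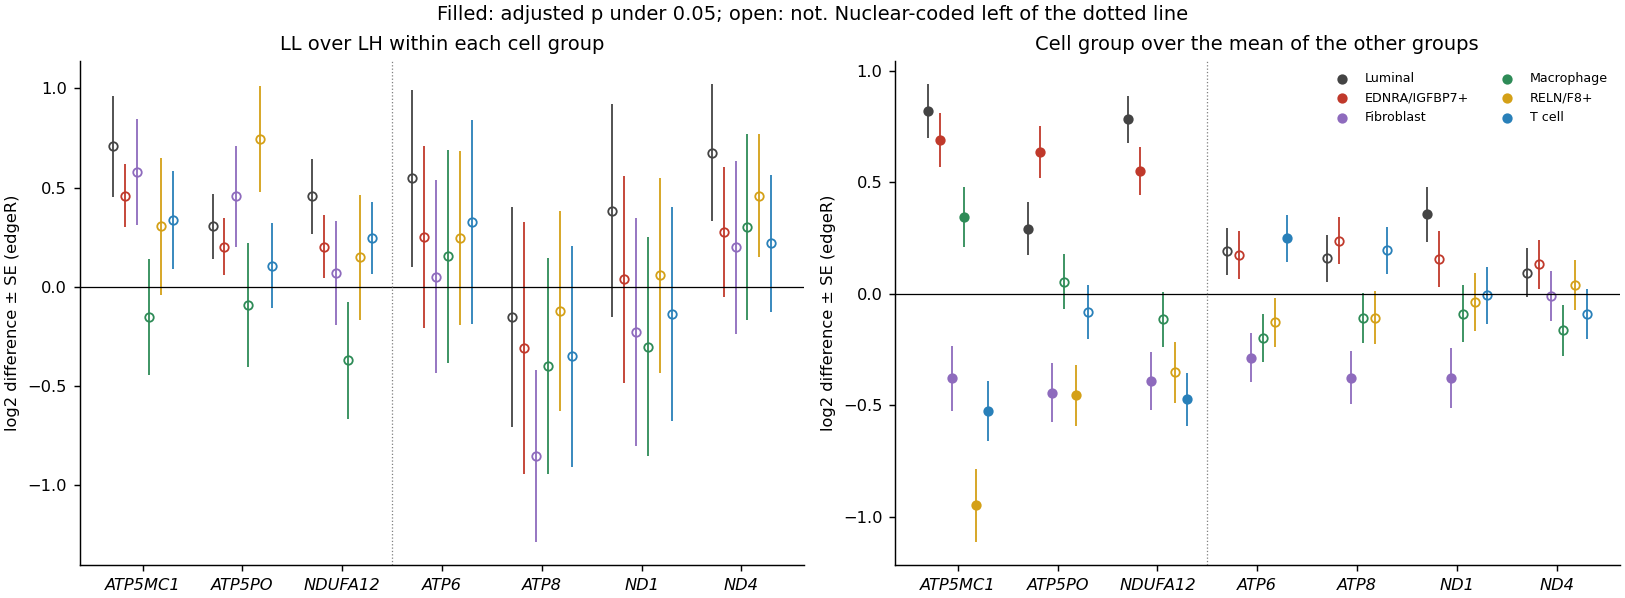
Log2 differences of the 7 members from edgeR with their SE (vertical axis), by gene (horizontal axis) and cell group. The left panel has LL over LH and the right panel each cell group over the mean of the other 5. Filled symbols mark an adjusted p under 0.05. No symbol is filled on the left, and on the right the nuclear-coded members of luminal and EDNRA/IGFBP7-positive cells lie above 0 and those of RELN/F8-positive cells below it.

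A high share of mitochondria-coded transcripts is commonly read as a sign of a damaged cell, so the nuclear-coded members were also counted as CPM over the UMIs of genes outside the mitochondrial genome, within bins of the cells' mitochondria-coded share. In luminal cells of the bin from 2% to 4% the 3 members summed to 620 and 744 in LL and to 459 and 501 in LH, with exact Poisson 95% intervals (counting error only) of 598 to 642 and 729 to 760 in LL and of 432 to 487 and 489 to 513 in LH. The LL ewes again exceeded the LH ewes, as over all luminal cells. The bin from 4% to 8% had 629 and 720 in LL and 481 and 376 in LH, again without overlap. Luminal cells of the bin from 8% to 20% had 446 and 642 in LL and 435 and 206 in LH. In each luminal library this was the lowest of the bins shown. EDNRA/IGFBP7-positive cells of the bin from 2% to 4% had 668 and 738 in LL and 650 and 664 in LH, and those of the bin from 4% to 8% had 777 and 819 in LL and 647 and 482 in LH. Their bin from 8% to 20% had 601 and 500 in LL and 444 and 204 in LH. The order turned in their bin from 0% to 2%, with 434 and 391 in LL and 641 in LH replicate 2. LH replicate 1 had too few cells in that bin to be shown. T cell-like cells of the bin from 2% to 4% had 349 and 350 in LL and 301 and 398 in LH, where the stages overlapped. In that bin every luminal and EDNRA/IGFBP7-positive library lay above every T cell-like library. Of the bins by depth, those of at least 5000 UMIs gave the same order in luminal cells: cells with at least 10000 UMIs had 627 and 712 in LL and 469 and 502 in LH, and cells with 5000 to 10000 UMIs had 654 and 795 in LL and 449 and 515 in LH. Luminal cells of 500 to 2000 UMIs had 587 and 412 in LL, and LH replicate 2 had 515, which lay between them. In macrophage-like cells the shallow cells were higher in all 4 libraries: those under 2000 UMIs had 904 and 635 in LL and 553 and 872 in LH, and those of 5000 to 10000 UMIs had 389 and 338 in LL and 319 and 401 in LH.

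**Figure D5:**
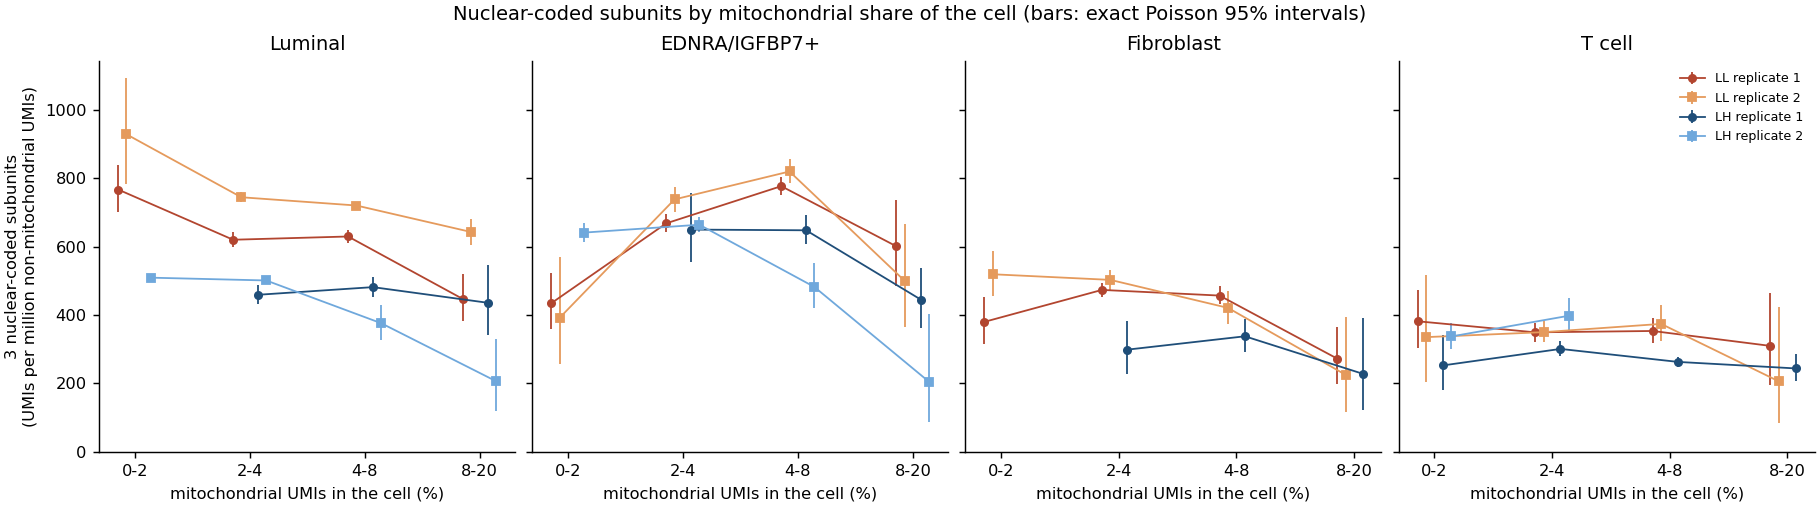
Summed nuclear-coded members (CPM over the UMIs of genes outside the mitochondrial genome, vertical axis) in bins of the cells' mitochondria-coded share in percent (horizontal axis) for 4 cell groups, 1 line per ewe of LL and LH, with exact Poisson 95% intervals. In luminal cells both LL ewes lie above both LH ewes in the bins from 2% to 4% and from 4% to 8%.

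Ratios between members of the same complex show which library or cell group set them apart, and they cancel the library total. UMIs of ATP8 were 2.69% to 2.98% of those of ATP6 in LL replicate 1 and 2.62% to 3.43% in LL replicate 2, over the 6 cell groups, and 4.14% to 5.13% in LH replicate 1 and 2.93% to 3.78% in LH replicate 2. LH replicate 1 was the highest library in 6 of 6 groups. The UMIs of ND4 were 2.35 to 3.42 times those of ND1 in LL replicate 1 and 1.80 to 2.44 times in LL replicate 2, against 1.43 to 1.89 times in LH replicate 1 and 2.36 to 4.13 times in LH replicate 2, and LH replicate 1 was the lowest in 6 of 6 groups. ATP5MC1 can be set against ATP5MC2, another gene for the same ring subunit. In luminal cells ATP5MC1 UMIs were 19.1% and 24.9% of those of ATP5MC2 in LL and 16.4% and 13.8% in LH. The EDNRA/IGFBP7-positive cells had 31.0% and 36.3% in LL and 20.2% and 21.7% in LH, and in fibroblast-like cells 38.3% and 41.7% in LL and 26.6% and 28.6% in LH. Both LL values exceeded both LH values in 4 of 6 groups (these 3 and T cell-like cells) and lay below them in none. In T cell-like cells the nearest values were 13.9% (LL replicate 1) and 13.3% (LH replicate 2). The fibroblast-like value of LH replicate 2 rested on 8 and 28 UMIs. For ATP8 to ATP6, both LL values lay below both LH values in 4 of 6 groups and above in 0. ATP5MC1 to ATP5PO had LL above in 2 and below in 1, and NDUFA12 to ATP5PO above in 1 and below in 3. The share of such orders over all gene pairs was not counted. No test beyond this order was run for these ratios, and since ATP5MC genes have closely similar coding sequences, their reads could be split between them by the mapping.

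Of the other respiratory chain and ATP synthase genes with a symbol, the 4 nuclear-coded ones were NDUFB6 and NDUFB8 (complex I accessory subunits), ATP5MC2 and ATP5PD (a peripheral stalk subunit). Against the mean of the other cell groups, 3 of 4 were called higher in luminal cells (ATP5MC2 by 1.00, ATP5PD by 0.54 and NDUFB8 by 0.59 log2) and 3 of 4 in EDNRA/IGFBP7-positive cells (ATP5PD by 0.46, NDUFB6 by 0.40 and NDUFB8 by 0.42 log2) by edgeR. In RELN/F8-positive cells 3 of 4 were called lower. In T cell-like cells 1 of 4 was called lower and in fibroblast-like cells 2 of 4, with ATP5MC2 at -1.27 log2 (edgeR adjusted p = 1.3e-06). In EDNRA/IGFBP7-positive cells the log2 difference was 0.69 ± 0.12 for ATP5MC1 and 0.22 ± 0.14 for ATP5MC2 (edgeR adjusted p = 0.20); the difference between the genes was not tested. Of the 9 other mitochondria-coded genes, 3 were called higher and 1 lower in luminal cells, 2 higher in EDNRA/IGFBP7-positive cells, 3 higher in T cell-like cells, 7 lower in fibroblast-like cells, 2 lower in RELN/F8-positive cells and none in macrophage-like cells. Over all genes, 30.9% were called higher in luminal, 25% in EDNRA/IGFBP7-positive and 29.8% in T cell-like cells. The counts of mitochondria-coded genes called higher there were near these shares. Shares called lower were 28.3% in luminal, 28.5% in T cell-like, 23.5% in fibroblast-like and 13.7% in RELN/F8-positive cells. None of these 13 genes was called between LL and LH in any cell group by edgeR.

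Of 4 genes of mitochondrial exchange with a symbol (SLC25A4, SLC25A5, VDAC1 and UCP2), 2 were called higher and 1 lower in luminal cells and 2 higher and 2 lower in EDNRA/IGFBP7-positive cells. Over all genes 30.9% were called higher and 28.3% lower in luminal cells, and 25% higher and 21.2% lower in EDNRA/IGFBP7-positive cells. SLC25A4, a carrier that swaps ADP for ATP across the inner membrane and is known from muscle, was higher in EDNRA/IGFBP7-positive cells by 2.88 ± 0.13 log2 (edgeR adjusted p = 3e-13), with 745 and 565 CPM in LL and 321 and 479 CPM in LH. UCP2, an inner membrane transporter, was higher in macrophage-like cells by 4.90 ± 0.17 log2 (edgeR adjusted p = 8.9e-16), with 95.5 and 73.3 CPM in LL and 113 and 128 CPM in LH. The order of cell groups for the ATP synthase and complex I members was thus not that of every mitochondrial gene.

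Over the 24 points of 6 cell groups and 4 libraries, log2 CPM of the nuclear-coded members correlated with each other at Pearson r between 0.73 and 0.81, and of the mitochondria-coded members between 0.74 and 0.93. The sums of the 2 sets had r = -0.02, and r = 0.30 after each library's mean was removed. These are descriptions without a test, since the points share libraries, depth and totals. Of 341 other genes with a symbol and at least 20 CPM on average, those most like the nuclear-coded sum were NDUFB8 (r = 0.89), NDUFB6 (0.81), SLC25A4 (0.80), EIF1AX (0.79) and IDH1 (0.76), and those most like the mitochondria-coded sum were COX3 (0.95), ND2 (0.92), COX1 (0.92), CYTB (0.91) and ND3 (0.87).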

How the data were processed

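Mammary gland tissue of 4 ewes was measured by droplet single-cell RNA sequencing. The deposited values are UMI counts per gene and barcode, whole numbers that the authors made with Cell Ranger, version 7.2.0 per the file headers and version 5.0.1 per the submitters' processing notes, which list STAR and Seurat 3.2.0 as well. Neither the genome build, the strand setting nor the treatment of reads that match several genes is given in the sources used here, so no coordinates or sequences are printed. Of 20150 genes, 774 had a symbol. The smallest barcode total was 500 UMIs.

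Libraries were assigned to LL and LH by their titles. The members and the gene and marker lists were chosen with earlier results of these data known, and the thresholds of the marker sums were set after the data were seen. Cells meeting the rule of more than 1 group were left out, and 61.7% and 65.0% (LL) and 60.6% and 68.8% (LH) of the kept cells were given a group. Doublets were not removed in the values reported, and cells with called doublets left out were an alternative. Groups needed at least 20 cells in every library. The UMIs of each group were added up within a library, and the sums were tested with edgeR 4.0.16 under R 4.3.3 by its quasi-likelihood test (TMM, filterByExpr with a minimum count of 10, Benjamini-Hochberg adjusted p under 0.05). Printed CPM levels are per 1000000 UMIs of the cell group in that library, without TMM, and log2 differences are with it. Ratios were compared by exact permutation, and Poisson intervals were computed with scipy 1.17.1. DESeq2 1.42.0 and Leiden clusters (leidenalg 0.10.2, resolution 1, 2000 variable genes, 30 components, 20 neighbours) were alternatives. Genes named beside the members were those of the lists of respiratory chain, mitochondrial exchange and glycolysis genes that carry a symbol, and the 5 most correlated with each sum. On counts simulated for the luminal LL and LH libraries, 24.0% of genes changed 2-fold and 99.0% of those changed 4-fold were recovered, over 13383 genes. For luminal cells against the other groups the shares were 96.9% and 100% over 10941 genes, and for the stage by group test 7.22% and 71.7% over 12397 genes. The simulation gave every gene the same set dispersion (0.05), and the changed genes were drawn from those well counted in luminal cells. These shares therefore do not carry over to genes with few UMIs. Nor do they carry over to genes that varied more between ewes, such as the mitochondria-coded members. The simulated cell groups were drawn independently, with no shift of a ewe shared by its groups. For luminal cells against the other groups, all groups were drawn from the same means before changes were added. In the data 7075 of 11963 genes were called in luminal cells, so those shares may not carry over to them. Each library is 1 ewe, so p-values of LL against LH within a cell group measure the spread between these few ewes. In the fits over all cell groups the library was a block. Their p-values measure how differences between cell groups varied over the same few ewes.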

Additional observations from a re-analysis of the deposited data

How the results depend on the processing

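All 7 members stayed without a call between LL and LH in every alternative except those without 1 LH ewe given above, and the ATP5MC1 and NDUFA12 differences named above as passing in every setting kept their direction. The number of genes called between LL and LH by edgeR (1 in luminal, 1 in fibroblast-like, 3 in EDNRA/IGFBP7-positive, 1 in T cell-like, 1 in macrophage-like and 0 in RELN/F8-positive cells) moved with the settings. With at most 5% mitochondria-coded UMIs there were 3 in luminal, 4 in fibroblast-like and 1 in EDNRA/IGFBP7-positive cells. In Leiden clusters there were 2 in luminal, 3 in fibroblast-like, 5 in EDNRA/IGFBP7-positive and 0 in macrophage-like cells. By DESeq2 there were 313 in luminal, 6 in fibroblast-like, 79 in EDNRA/IGFBP7-positive, 51 in T cell-like, 6 in macrophage-like and 15 in RELN/F8-positive cells. With no filter on low counts there were 79 in luminal, 0 in fibroblast-like, 106 in EDNRA/IGFBP7-positive, 445 in T cell-like, 112 in macrophage-like and 226 in RELN/F8-positive cells. With at most 10% mitochondria-coded UMIs there were 4 in fibroblast-like and 1 in EDNRA/IGFBP7-positive cells. With no filter on the mitochondria-coded share there were 4 in fibroblast-like cells. Without called doublets there were 8 in fibroblast-like and 1 in EDNRA/IGFBP7-positive cells. With totals free of mitochondria-coded genes there were 3 in fibroblast-like cells. Without TMM there were 8 in fibroblast-like and 2 in macrophage-like cells. For the luminal stage change against the other groups (5 genes called) it was 0 with at most 10% mitochondria-coded UMIs, with at most 5% mitochondria-coded UMIs, with at least 1000 UMIs per cell, in Leiden clusters and without TMM, and 3 without called doublets, 84 by DESeq2 and 50 with no filter on low counts. Leaving out 1 library at a time gave 0 to 57 genes for luminal cells, 0 to 12 genes for fibroblast-like cells, 0 to 667 genes for EDNRA/IGFBP7-positive cells, 3 to 322 genes for T cell-like cells, 1 to 20 genes for macrophage-like cells, 0 to 161 genes for RELN/F8-positive cells, 1870 to 3080 genes for RELN/F8-positive cells against the other groups and 0 to 42 genes for the luminal change against the other groups.

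Members changed sign only where the difference was uncalled, except ATP6 in T cell-like cells. For LL over LH, the log2 difference changed sign in these cases. In Leiden clusters it came to -0.19 for NDUFA12 in fibroblast-like cells, -0.098 for ND1 in EDNRA/IGFBP7-positive cells and 0.56 for ATP5MC1, 0.14 for ATP5PO, 0.36 for NDUFA12, 0.12 for ND1 in macrophage-like cells. By DESeq2 it came to -0.0095 for NDUFA12 in fibroblast-like cells. With at most 5% mitochondria-coded UMIs it came to 0.050 for ND1 in fibroblast-like cells, 0.034 for ATP8 in EDNRA/IGFBP7-positive cells, 0.069 for ND1 in T cell-like cells and 0.11 for ATP8 in RELN/F8-positive cells. With no filter on low counts it came to 0.026 for ATP8 in RELN/F8-positive cells. With no filter on the mitochondria-coded share it came to -0.026 for ND1 in RELN/F8-positive cells. Without TMM it came to -0.0082 for ND1 in RELN/F8-positive cells. For cell group over the others, the log2 difference changed sign in these cases. Without TMM it came to -0.0069 for ATP6, -0.019 for ATP8, -0.098 for ND4 in luminal cells, 0.26 for ND4 in fibroblast-like cells, -0.029 for ATP6, -0.071 for ATP8 in T cell-like cells, -0.074 for ATP5PO in macrophage-like cells and 0.15 for ATP6, 0.13 for ATP8, 0.24 for ND1 in RELN/F8-positive cells. By DESeq2 it came to 0.025 for ND4 in fibroblast-like cells and 0.022 for ND1 in RELN/F8-positive cells. With no filter on low counts it came to 0.0017 for ND4 in fibroblast-like cells and -0.017 for ATP5PO in macrophage-like cells. With at most 5% mitochondria-coded UMIs it came to 0.051 for ND1 in T cell-like cells, -0.025 for ATP5PO in macrophage-like cells and -0.067 for ND4 in RELN/F8-positive cells. In Leiden clusters it came to 0.15 for ND1, 0.10 for ND4 in T cell-like cells and -0.016 for ATP5PO, 0.012 for NDUFA12 in macrophage-like cells. With at least 1000 UMIs per cell it came to -0.094 for ATP5PO in macrophage-like cells. With no filter on the mitochondria-coded share it came to 0.0046 for ND1 in RELN/F8-positive cells. For the luminal stage change minus that of the others, the log2 difference changed sign in these cases. With at most 5% mitochondria-coded UMIs it came to 0.026 for ATP5PO, -0.16 for ATP8. With at least 1000 UMIs per cell it came to 0.014 for ATP5PO. In Leiden clusters it came to 0.13 for ATP5PO. Without called doublets it came to 0.055 for ATP5PO. By DESeq2 it came to 0.043 for ATP5PO. Without TMM it came to 0.023 for ATP5PO. The LL minus LH difference of the log2 ratio turned to 0.15 (fibroblast-like) and 0.025 (RELN/F8-positive) with at most 5% mitochondria-coded UMIs and to 0.18 (fibroblast-like) in Leiden clusters, where the luminal difference from EDNRA/IGFBP7-positive cells turned to -0.034.

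With each library left out in turn, most of the changes of sign were in mitochondria-coded members. In luminal cells ATP8 ran from -0.80 to 1.02 and ND1 ran from -0.21 to 1.41. In fibroblast-like cells NDUFA12 ran from -0.22 to 0.17, ATP6 ran from -0.55 to 1.19, ATP8 ran from -1.32 to 0.86, ND1 ran from -0.94 to 1.56 and ND4 ran from -0.30 to 1.07. In EDNRA/IGFBP7-positive cells ATP6 ran from -0.30 to 1.17, ATP8 ran from -1.03 to 1.14, ND1 ran from -0.58 to 1.14 and ND4 ran from -0.12 to 0.84. In T cell-like cells ATP5PO ran from -0.092 to 0.30, ATP6 ran from -0.31 to 1.44, ATP8 ran from -1.02 to 0.96, ND1 ran from -0.81 to 1.09 and ND4 ran from -0.21 to 0.80. In macrophage-like cells ATP5MC1 ran from -0.32 to 0.036, ATP5PO ran from -0.30 to 0.14, ATP6 ran from -0.38 to 0.98, ATP8 ran from -1.07 to 0.82, ND1 ran from -0.92 to 0.76 and ND4 ran from -0.083 to 0.80. In RELN/F8-positive cells ATP6 ran from -0.28 to 1.26, ATP8 ran from -0.66 to 1.38 and ND1 ran from -0.49 to 1.17 (log2, LL over LH). In luminal cells ND4 ran from -0.057 to 0.18. In fibroblast-like cells ND4 ran from -0.098 to 0.070. In T cell-like cells ND1 ran from -0.064 to 0.018. In macrophage-like cells ATP5PO ran from -0.12 to 0.19, NDUFA12 ran from -0.34 to 0.0075 and ND1 ran from -0.23 to 0.065. In RELN/F8-positive cells ATP8 ran from -0.20 to 0.0039, ND1 ran from -0.091 to 0.023 and ND4 ran from -0.0033 to 0.098 (log2, a cell group over the others). The luminal stage change minus that of the others ran for ATP5PO from -0.11 to 0.076, ATP6 from -0.020 to 0.46 and ATP8 from -0.073 to 0.23. The LL minus LH difference of the log2 ratio ran from -0.49 to 0.90 in luminal cells, from -0.99 to 0.91 in fibroblast-like cells, from -0.62 to 0.80 in EDNRA/IGFBP7-positive cells, from -0.76 to 1.18 in T cell-like cells, from -0.45 to 1.24 in macrophage-like cells and from -0.68 to 0.54 in RELN/F8-positive cells over the same fits. The causes of these changes were not tested.

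The shared replicate numbers did not pair the ewes: deviations of same-numbered libraries from their stage means correlated at -0.152 to 0.0424 over the 6 cell groups. With the replicate block the number of genes edgeR called was 37 in fibroblast-like, 1 in EDNRA/IGFBP7-positive, 25 in T cell-like and 16 in macrophage-like cells, and the log2 difference turned for ATP8 to 0.11 (luminal), ND1 to 0.21 (fibroblast-like), ATP8 to 0.050 (EDNRA/IGFBP7-positive), ND1 to 0.15 (T cell-like) and ATP8 to 0.10 (RELN/F8-positive). In RELN/F8-positive cells, where same-numbered libraries deviated oppositely, the crossed pairing as a block, chosen after the data were seen, called 14 genes. The same block called 25 in luminal, 16 in fibroblast-like, 2 in EDNRA/IGFBP7-positive, 1 in T cell-like and 0 in macrophage-like cells (edgeR). In macrophage-like cells that edgeR fit had 557 genes at an unadjusted p under 0.05, and DESeq2 without a block called 6.

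Removal of cells over 5% mitochondria-coded UMIs, removal of called doublets and the crossed pairing were alternatives chosen after the data were seen. RELN/F8-positive cells could not be formed as Leiden clusters with at least 20 cells in every library, and groups under 50 cells in a library were left out of that setting. Depth limits the fibroblast-like and RELN/F8-positive groups most, where 1 LH library held 8 to 12 and 7 to 15 UMIs of each nuclear-coded member.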

Other observations

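Cells that met other marker rules were too few in LH to compare. Blood endothelium-like cells, marked by SELP, SELE and KDR, numbered 521 in LL replicate 1 and 33 in LL replicate 2, against 1 and 18 in LH. Their nuclear-coded members summed to 285 and 355 CPM in LL replicates 1 and 2, and their log2 ratio of mitochondria-coded to nuclear-coded members was 5.91 and 5.16. In LL replicate 1 this ratio was above those of all 6 compared groups, which ran from 4.62 to 5.45 there. Cells positive for the mast cell genes TPSB2 and FCER1A numbered 66 in LL replicate 1, with a nuclear-coded sum of 358 CPM and a log2 ratio of 5.73.

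Of the glycolysis genes with a symbol, SLC2A3, a glucose transporter, was higher in T cell-like cells by 3.02 log2 and in EDNRA/IGFBP7-positive cells by 1.99 log2 and lower in luminal cells at -3.34 log2 against the mean of the other groups (edgeR). GAPDH was higher in luminal cells by 1.12 log2 and in macrophage-like cells by 0.94 log2, and PGK1 in T cell-like cells by 1.08 log2 and in macrophage-like cells by 0.59 log2 in the same edgeR fit. PGK1 was lower in luminal cells, at -0.53 log2, and in RELN/F8-positive cells GAPDH and PGK1 were lower, at -1.28 and -0.95 log2. Of these 3 genes, 1 was called higher in luminal cells (30.9% of all genes), 1 in EDNRA/IGFBP7-positive (25%), 2 in T cell-like (29.8%) and 2 in macrophage-like cells (25.5%). Called lower were 2 in luminal (28.3% of all genes), 1 in fibroblast-like (23.5%) and 2 in RELN/F8-positive cells (13.7%). None of the 3 was called between LL and LH in any cell group.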
